A study of Mus musculus with 6 samples.

Results

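The genes described here encode the 5 subunits of the transcription factor NF-kB (Nfkb1, Nfkb2, Rel, Rela and Relb) and 5 of its inhibitors (Nfkbia, Nfkbib, Nfkbie, Nfkbid and Tnfaip3). They were taken by symbol from the deposited table of read counts, where all 10 were found among 48397 gene rows, and all 10 were among the 12312 genes that passed the filter on low counts. Counts came from 6 RNA-Seq libraries of stage 0 iNKT cells, the first invariant natural killer T cells to appear after positive selection in the thymus. Of these, 3 libraries were from BALB/c mice with wild-type Zap70 and 3 from SKG mice, which carry a hypomorphic mutation of Zap70, the kinase that relays the T cell receptor (TCR) signal, on the same BALB/c background. All mice were 8 to 10 weeks old, and each library was made from about 1000 sorted cells of 3 pooled thymi, so a replicate is a pool of animals. The SKG mutation is in the germline, so cells carried it before stage 0 as well. The comparison asked which genes depend on the strength of TCR signaling at the start of iNKT development.

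NF-kB works as dimers of its 5 subunits. Inhibitors of the IkB family hold the dimers in the cytoplasm, and signaling from the TCR through PKC-theta and the Carma1-Bcl10-Malt1 complex activates the IKK kinase, which marks IkB proteins for degradation and frees the dimers to enter the nucleus. Rela and Rel with the product of Nfkb1 make up the canonical arm, and Relb with the product of Nfkb2 the alternative arm, which is driven by receptors of the TNF receptor family. Several inhibitors are themselves NF-kB targets and so form feedback loops. Loss of NF-kB activity in developing T cells is known to impair iNKT cells.

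Reads counted on genes ranged from 37176544 to 43115544 per library, and between 10835 and 14791 genes had 10 reads or more. T cell and iNKT markers were present in all libraries, with Cd3e between 836 and 1090 CPM (reads scaled to the total of a library) and the PLZF gene Zbtb16 between 83.4 and 176. Cd24a, one of the sorting markers, lay between 7.22 and 88.3 CPM. Zap70 itself was between 374 and 498 CPM in BALB/c and between 322 and 409 in SKG. Since the SKG allele changes the protein and not the presence of the mRNA, this level is no check of the genotype. Markers of other cells were low but uneven. The summed CPM of 9 B-cell markers reached 138 in the first BALB/c replicate and 143 in SKG replicate 3, against 4.74 to 27.9 in the other 4 libraries, and Pax5 was at or near 0 in all 6. For 10 myeloid and dendritic markers the sums were 297 and 399 in the same pair of libraries and 123 to 211 in the others, with Csf1r at or near 0 throughout. The sum of 9 double-positive thymocyte markers, which include Rag1, Rag2, Cd4 and Cd8a, was highest in BALB/c replicate 1 at 477 and lowest in BALB/c replicate 3 at 79.4. Those of 6 erythroid markers ranged from 0.0266 to 69.3, with Alas2 at 0, and those of 7 thymic epithelial markers from 14.3 to 96.8, with Krt5 and Psmb11 at 0. In bulk libraries such as these, fewer cells expressing a gene and less RNA per cell cannot be told apart.

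Because genes of this family are known to be controlled by NF-kB itself, the DNA in front of them was searched for the decamer kappaB consensus, the sequence to which NF-kB dimers bind. RefSeq promoter windows of GRCm38.p6, reaching from 250 bases before to 50 bases after a transcription start, were at hand for 8 of the 10 genes. Both strands were read, and overlapping matches were merged. A match was found in at least 1 window of 6 of these 8 genes (Nfkb2, Rel, Nfkbia, Nfkbid, Nfkbie and Tnfaip3), and none in the windows of Rela and Nfkbib. Over all 32851 windows of the same length 4.51% held a match, and so did those of 5.88% of 8404 tested genes with a window. A match describes letters and not a bound site, and a window without a match says nothing of the rest of the locus. The windows of 4 genes are printed from 5′ to 3′ on the strand of the gene, with the matches in capitals. They were picked because these genes differed most in how they behaved in the libraries: Nfkbia overlapped between the genotypes, Nfkbie was lower in every SKG library, Tnfaip3 was set apart by 1 SKG library, and Nfkb2 had a low library in each genotype.
Nfkbia, chr12:55492598-55492897, minus strand: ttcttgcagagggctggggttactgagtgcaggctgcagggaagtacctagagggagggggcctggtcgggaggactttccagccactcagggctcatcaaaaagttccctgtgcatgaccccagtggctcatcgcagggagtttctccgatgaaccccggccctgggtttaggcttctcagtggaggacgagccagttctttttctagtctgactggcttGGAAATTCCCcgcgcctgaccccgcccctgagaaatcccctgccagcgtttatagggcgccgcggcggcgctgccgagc
Nfkbie, chr17:45555450-45555749, plus strand: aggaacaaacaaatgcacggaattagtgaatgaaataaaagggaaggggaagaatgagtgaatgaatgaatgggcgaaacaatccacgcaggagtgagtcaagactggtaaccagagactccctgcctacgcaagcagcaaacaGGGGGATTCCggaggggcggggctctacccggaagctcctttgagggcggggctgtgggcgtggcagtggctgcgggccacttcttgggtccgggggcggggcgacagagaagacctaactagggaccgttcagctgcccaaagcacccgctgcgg
Tnfaip3, chr10:19015361-19015660, minus strand: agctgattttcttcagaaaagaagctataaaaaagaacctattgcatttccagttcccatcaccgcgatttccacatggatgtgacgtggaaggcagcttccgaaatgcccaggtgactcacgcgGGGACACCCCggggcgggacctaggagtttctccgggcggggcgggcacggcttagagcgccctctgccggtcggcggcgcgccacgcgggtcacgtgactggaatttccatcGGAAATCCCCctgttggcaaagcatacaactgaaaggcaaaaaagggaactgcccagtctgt
Nfkb2, chr19:46304487-46304786, plus strand: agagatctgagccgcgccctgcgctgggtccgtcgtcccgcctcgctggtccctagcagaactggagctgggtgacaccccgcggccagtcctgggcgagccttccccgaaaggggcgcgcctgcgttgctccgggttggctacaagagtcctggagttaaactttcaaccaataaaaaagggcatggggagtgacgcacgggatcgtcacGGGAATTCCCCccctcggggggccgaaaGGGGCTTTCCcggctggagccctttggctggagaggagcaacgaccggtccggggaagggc
The single match of Nfkbia began 29 bases before the start site and that of Nfkbie 106 bases before it. Tnfaip3 had matches that began 125 and 12 bases before the start. In this window of Nfkb2 they began 39 and 11 bases before it, the former with overlapping matches on both strands.

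To compare levels between genes, CPM were divided by the length of the merged exons in kilobases, from the GENCODE annotation of GRCm38, giving the measure known as RPKM. By the mean of the 6 libraries, the most abundant mRNAs were those of Nfkbia, which encodes IkB-alpha, the fast feedback inhibitor of the canonical arm, at 90.9 ± 32.3 RPKM (SD, n = 6), and of Rela, its main partner, at 88.7 ± 19.8. Nfkbia was above Rela in 4 of the 6 libraries and the ranges overlapped, so their order is not resolved. Next came Nfkbib, encoding IkB-beta, at 40.4 ± 8.47 RPKM, below Rela in all 6 libraries and with no overlap of their ranges. Nfkbid, encoding the nuclear inhibitor IkB-NS, followed at 27.0 ± 11.2 RPKM. Relb was at 14.4 ± 11.1, Tnfaip3 at 8.34 ± 7.46, Nfkb2 at 7.84 ± 4.62, Nfkbie at 7.18 ± 3.21 and Nfkb1 at 6.97 ± 3.72 RPKM, and in this stretch the range of each gene overlapped that of the next. Rel had the lowest mean of the subunits at 2.63 ± 1.19 RPKM and lay below Nfkb1 in 6 of 6 libraries, though their ranges overlapped. It was not the lowest in every library, since Nfkb2 lay below it in BALB/c replicate 2 and SKG replicate 1, and Relb in SKG replicate 2. Scaled as TPM instead, the 10 genes kept this order.

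**Figure D1:**
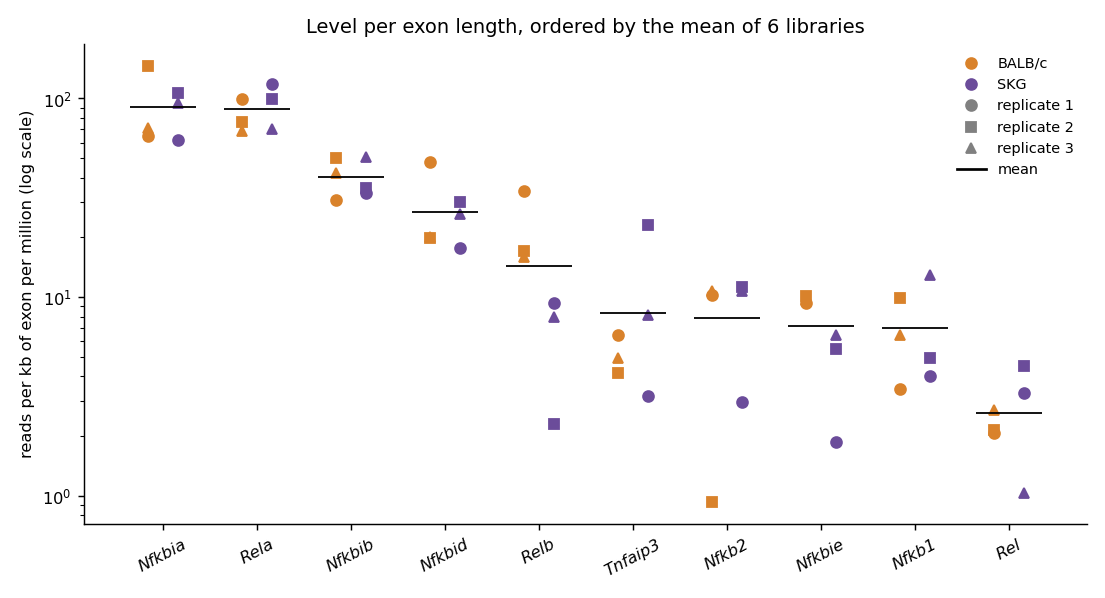
Level of each gene per exon length (RPKM, log axis) in the 6 libraries, with genes ordered by their mean (black line), BALB/c in orange and SKG in purple, and the marker shape giving the replicate. Nfkbia and Rela stand above the other 8 genes, Relb and Nfkbie have all SKG points under all BALB/c points, and 1 BALB/c point of Nfkb2 lies far under the rest.

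Among the subunits, Relb showed the largest difference between the genotypes. Relb, the subunit of the alternative arm (GRCm38 chromosome 7, positions 19606217 to 19629438), was counted at 133, 66.3 and 61.6 CPM in BALB/c replicates 1 to 3 and at 36.2, 8.93 and 30.9 CPM in SKG replicates 1 to 3. No SKG library reached the lowest BALB/c library, and BALB/c replicate 1 and SKG replicate 2 were the extremes. The means were 86.8 ± 39.7 CPM (SD, n = 3) and 25.3 ± 14.5 CPM (SD, n = 3), which edgeR fitted as 3.43-fold higher in BALB/c (log2 fold change of SKG over BALB/c -1.78 ± 0.60 SE, unadjusted p = 0.0232, adjusted p = 0.834). Relb thus did not pass an FDR of 0.1 over all genes, and its adjusted p ranged from 0.192 to 1.0 over the alternatives. BALB/c replicate 1, with the highest Relb, was also 1 of the 2 libraries with most B-cell marker reads, while the other of them, SKG replicate 3, was among those with low Relb. Without BALB/c replicate 1 the log2 difference was -1.33 (edgeR, unadjusted p = 0.0817), and without both of these libraries it was -1.5 ± 0.72 SE (edgeR, unadjusted p = 0.0980). The part of the B-cell reads in the result was not tested further.

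Rela, the principal transactivating subunit (chromosome 19, 5637483 to 5648130), was at 304, 235 and 211 CPM in BALB/c and 362, 305 and 217 CPM in SKG. SKG replicates 1 and 2 lay above every BALB/c library and SKG replicate 3 within their range, and no library was more than 1.67 times another of the same genotype. The means of 250 ± 48.6 and 295 ± 73.1 CPM (SD, n = 3 each) differed by less than the spread between libraries (log2 fold change 0.24 ± 0.24 SE, edgeR adjusted p = 0.991). The value was larger, 0.43 and 0.41, when SKG replicate 3 or BALB/c replicate 1 was left out, and smaller, 0.06 and 0.14, when SKG replicate 1 or BALB/c replicate 3 was. Without the 2 libraries with most B-cell marker reads it was 0.59 ± 0.17 SE (edgeR unadjusted p = 0.0198, adjusted p = 0.795), and there Rela, not Relb, was the 1 member under an unadjusted p of 0.05. Rel, encoding c-Rel, a subunit known to be induced by TCR signals (chromosome 11, 23736847 to 23770970), was at 15.5, 16.1 and 20.1 CPM in BALB/c and 24.7, 33.8 and 7.80 CPM in SKG. The BALB/c libraries were close to each other, within 1.30-fold, whereas the SKG libraries lay on both sides of them and spanned 4.34-fold (log2 fold change 0.36 ± 0.67 SE, edgeR adjusted p = 0.991; -0.07 without SKG replicate 2).

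Nfkb1 encodes the p105 precursor of the p50 subunit, which is also an IkB-like inhibitor (chromosome 3, 135584655 to 135691547). It was at 41.9, 120 and 78.2 CPM in BALB/c and 48.7, 59.9 and 156 CPM in SKG. Both groups held a low and a high library, spanning 2.86-fold in BALB/c and 3.19-fold in SKG, around nearly equal means of 80.0 ± 39.1 and 88.1 ± 58.7 CPM (SD, n = 3 each). edgeR fitted a log2 fold change of 0.14 ± 0.56 SE (adjusted p = 0.996). It was -0.17 without BALB/c replicate 1 and -0.55 without SKG replicate 3. Nfkb2 encodes the p100 precursor of the alternative arm (chromosome 19, 46304320 to 46312385). It was at 47.3, 4.26 and 49.6 CPM in BALB/c, from 1952, 158 and 2240 reads, and at 13.7, 52.0 and 48.9 CPM in SKG, from 551, 2021 and 1769 reads. BALB/c replicate 2 and SKG replicate 1 stood apart at lower levels, and the remaining 4 libraries lay between 47.3 and 52.0 CPM. With both genotypes holding such a library, the groups overlapped (log2 fold change 0.18 ± 0.93 SE, edgeR adjusted p = 0.999). Its sign turned when single libraries were left out, to -0.35 without BALB/c replicate 2, -0.10 without SKG replicate 2 and -0.02 without SKG replicate 3. Some exons of Nfkb2 overlap those of Psd on the other strand, which had 218 reads over the 6 libraries. Counting was without regard to strand, so the level of Nfkb2 is uncertain by the reads in the shared stretch.

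**Figure D2:**
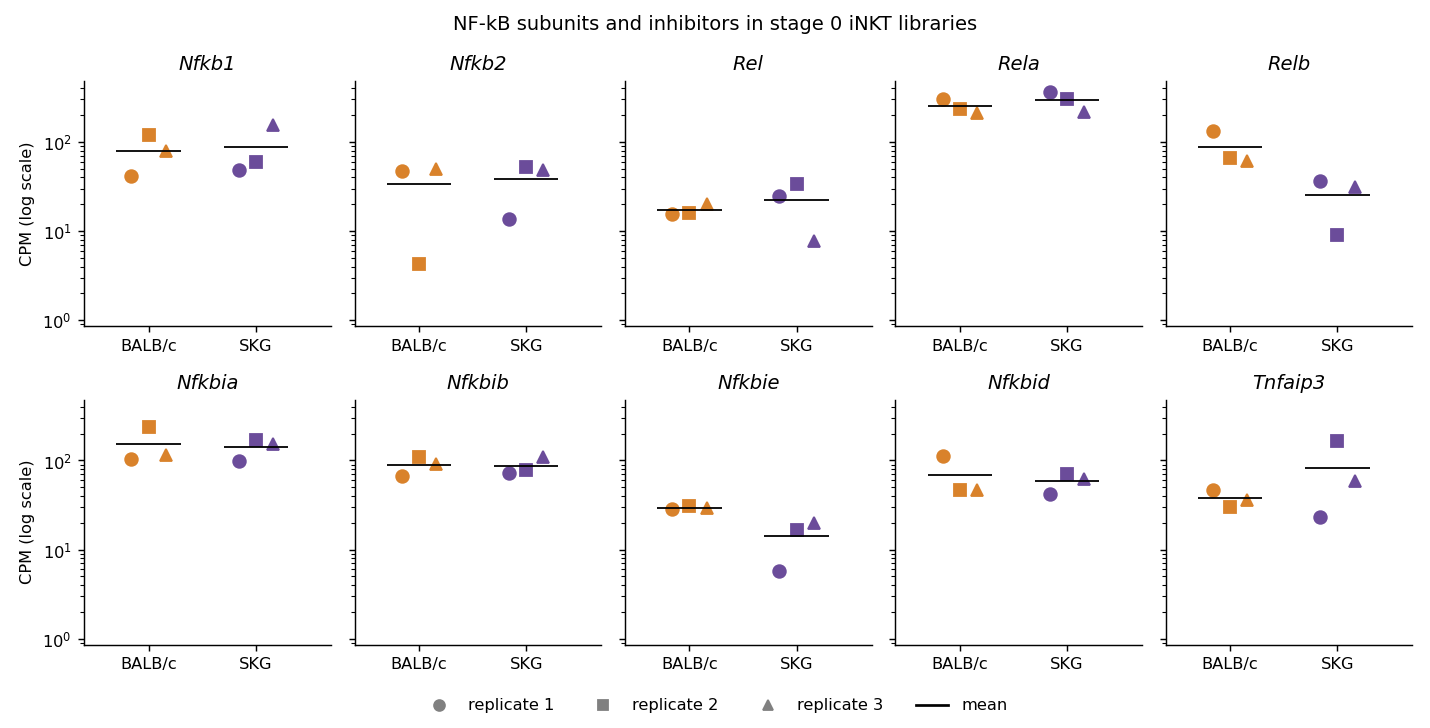
CPM (log axis) of the 10 genes in each library, with BALB/c in orange, SKG in purple, the marker shape giving the replicate and a line at the mean of 3 libraries. All SKG points lie under all BALB/c points for Relb and Nfkbie, while the other 8 genes overlap, with low libraries of Nfkb2 at 4.26 and 13.7 CPM, a low library of Rel at 7.80 CPM and a single high library of Tnfaip3 at 167 CPM.

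When the RPKM of the 5 subunits were summed within a library, the total was 120 ± 25.2 in BALB/c and 121 ± 17.2 in SKG (SD, n = 3 each), with overlapping libraries. Relb took 22.9%, 16% and 15.2% of the sum in BALB/c replicates 1 to 3 but 6.78%, 1.88% and 7.70% of it in SKG, without overlap. Rela took 66.5%, 71.8% and 65.7% in BALB/c and 85.7%, 81.1% and 68.5% in SKG, and here SKG replicate 3 fell within the BALB/c range. The ratio of Rela to Relb per kilobase was 2.90, 4.48 and 4.32 in BALB/c and 12.7, 43.2 and 8.89 in SKG. This ratio is taken within a library and so does not depend on the scaling between libraries, but it was chosen with the Relb values in view and carries no test. Nfkb1, Nfkb2 and Rel each held 12.5% or less of the sum in any library.

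**Figure D3:**
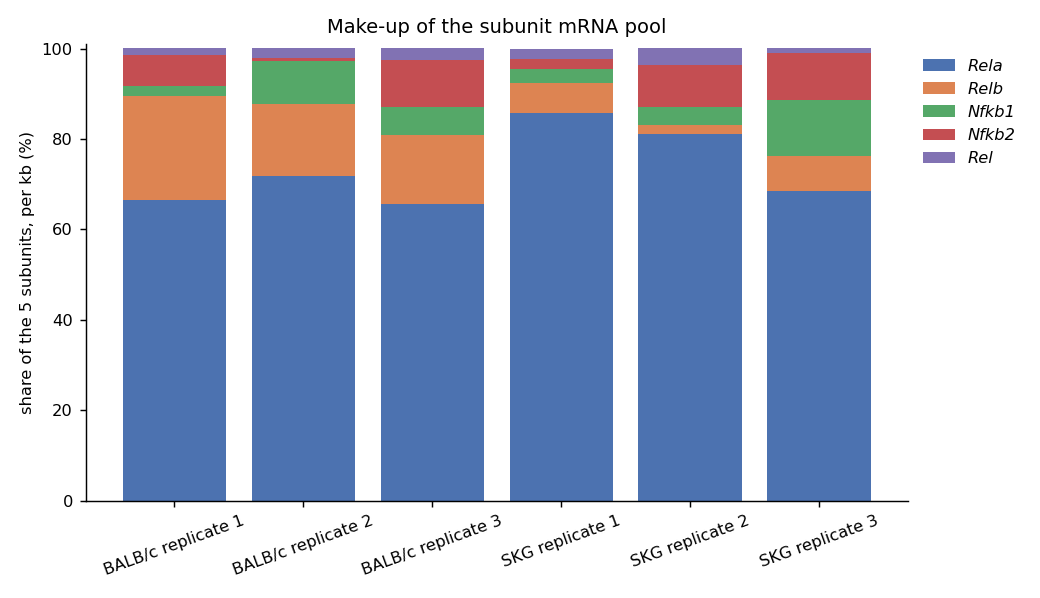
Share of each subunit in the summed level per kb of the 5 subunits (%), as 1 stacked bar per library that adds up to the whole. The Relb part is between 15.2% and 22.9% in the BALB/c libraries and between 1.88% and 7.70% in the SKG libraries, and Rela is the largest part in all 6.

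Of the IkB proteins that hold dimers in the cytoplasm, only Nfkbie had libraries that did not overlap between the genotypes. Nfkbie, encoding IkB-epsilon, a delayed feedback inhibitor (chromosome 17, 45555703 to 45563169), was at 28.4, 31.1 and 29.4 CPM in BALB/c and 5.71, 16.7 and 19.7 CPM in SKG. The BALB/c libraries were within 1.10-fold of each other and above each SKG library, of which replicate 1 was the lowest with 230 reads. The means of 29.6 ± 1.37 and 14.1 ± 7.38 CPM (SD, n = 3 each) corresponded to a 2.11-fold higher level in BALB/c (log2 fold change -1.08 ± 0.61 SE, edgeR unadjusted p = 0.126, adjusted p = 0.971), which did not pass. The difference shrank to -0.71 on the log2 scale without SKG replicate 1 and grew to -1.38 without SKG replicate 3, a library high in B-cell and myeloid markers. Among the 3 cytoplasmic inhibitors, Nfkbie took 8.89%, 4.95% and 7.86% of the summed RPKM in BALB/c and 1.93%, 3.74% and 4.25% in SKG.

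Nfkbia (chromosome 12, 55489410 to 55492647) was at 104, 235 and 115 CPM in BALB/c and 99.7, 171 and 153 CPM in SKG. The genotypes overlapped, with BALB/c replicate 2 the highest of all, and the means were 151 ± 72.9 and 141 ± 37.1 CPM (SD, n = 3 each; log2 fold change -0.10 ± 0.38 SE, edgeR adjusted p = 0.994). Leaving out BALB/c replicate 2 gave 0.36 and leaving out SKG replicate 1 gave 0.10. Nfkbib (chromosome 7, 28758251 to 28767512) was at 67.2, 108 and 91.0 CPM in BALB/c and 72.4, 77.3 and 110 CPM in SKG. It had the second smallest spread of the 10 genes and nearly the same mean in both genotypes, 88.9 ± 20.7 and 86.4 ± 20.2 CPM (SD, n = 3 each; log2 fold change -0.04 ± 0.28 SE, edgeR adjusted p = 0.999). The sign turned without BALB/c replicate 2 (0.12), SKG replicate 1 (0.07) or SKG replicate 2 (0.04). Its exons overlap those of Sirt2 on the other strand, which had 40335 reads in all, and counting was without regard to strand, so the level of Nfkbib is uncertain by the reads in the shared stretch.

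Nfkbid and Tnfaip3 act elsewhere in the pathway, the former in the nucleus and the latter, encoding the ubiquitin-editing enzyme A20, upstream of IKK. Nfkbid (chromosome 7, 30421732 to 30428746) was at 112, 46.8 and 47.1 CPM in BALB/c and 41.8, 71.0 and 61.4 CPM in SKG. BALB/c replicate 1 was the highest, as it was for Relb, and the groups overlapped (log2 fold change -0.24 ± 0.44 SE, edgeR adjusted p = 0.991). Without that library the log2 fold change was 0.31. Tnfaip3 (chromosome 10, 19000910 to 19015657) was at 46.6, 30.0 and 35.8 CPM in BALB/c and 23.1, 167 and 58.9 CPM in SKG. The SKG libraries reached from below to above the BALB/c range and spanned 7.23-fold, and SKG replicate 2 alone had 6498 reads where no other library had more than 2130. The log2 fold change of 1.15 ± 0.69 SE (edgeR adjusted p = 0.972) rested on that library, since it was 0.14 without SKG replicate 2 and 1.60 without SKG replicate 1. SKG replicate 2 was also the library with the lowest Relb.

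The inhibitors were also set against the subunits within each library. The summed RPKM of Nfkbia, Nfkbib and Nfkbie divided by that of the 5 subunits was 0.704, 1.94 and 1.18 in BALB/c and 0.707, 1.20 and 1.48 in SKG. The genotypes overlapped, with means of 1.27 ± 0.622 and 1.13 ± 0.390 (SD, n = 3 each), and the spread within BALB/c was larger than the difference. The ratio of Nfkbia to Rela plus Rel alone was 0.639, 1.86 and 1.00 in BALB/c and 0.511, 1.02 and 1.33 in SKG, again with overlap.

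Taking all 10 genes as a list, edgeR's quasi-likelihood test called 0 of them at the thresholds of an adjusted p (FDR) under 0.1 and a 1.5-fold change, beside 0.0% of all 12312 genes tested. DESeq2 with shrunken fold changes, which called 1.67% of 13862 genes given an adjusted p, also called 0 of the 10, and so did DESeq2 without shrinkage and limma-voom. At an unadjusted p under 0.05 edgeR found 1 gene (Relb), where 5.45% of all genes passed. BALB/c and SKG libraries were free of overlap for 2 genes (Relb and Nfkbie), both lower in SKG, where 13.9% of all genes did not overlap and 7.12% did so with SKG lower. For these 2 genes a two-sided exact permutation test over the libraries gave p = 0.1, the smallest that 3 libraries against 3 allow, and for the other 8 it gave between 0.4 and 1.0. Fitted log2 fold changes were above 0 for 5 genes and below 0 for 5, with a median of 0.05, and the median over all genes was -0.02. The median of the 10 was -0.19 without SKG replicate 3 and -0.08 without SKG replicate 2. Counts of 1 and 2 among 10 genes are close to these shares.

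**Figure D4:**
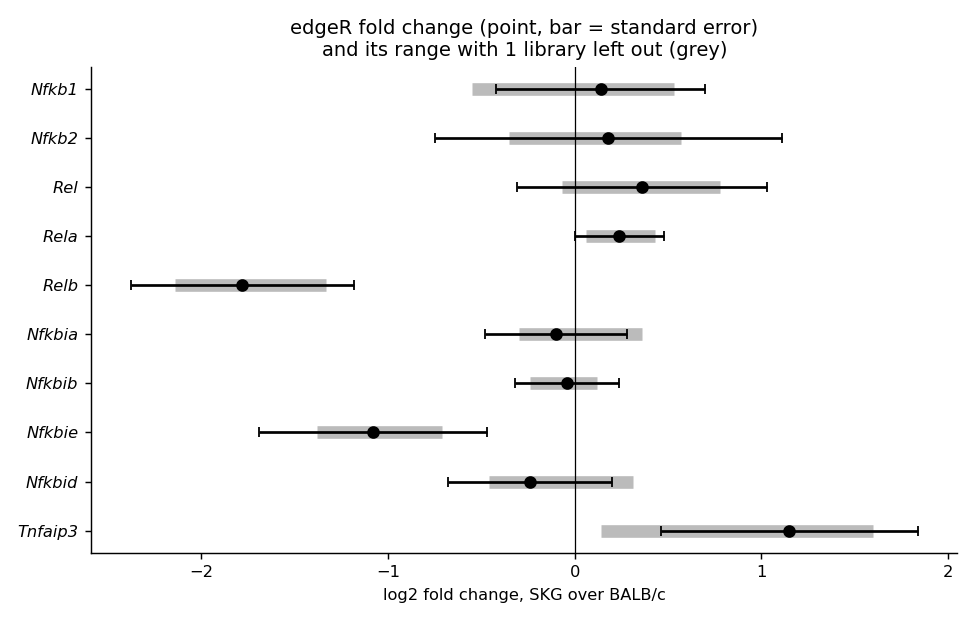
Log2 fold change of SKG over BALB/c fitted by edgeR for the 10 genes (points), with the standard error as a bar and the range obtained with each of the 6 libraries left out in turn in grey. Relb and Nfkbie stay below 0 and Rela and Tnfaip3 above 0 throughout, while the grey ranges of the other 6 cross 0.

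The spread between libraries of the same genotype differed widely within the family. The biological coefficient of variation that edgeR estimated was 23.8% for Rela, 29.2% for Nfkbib and 34.6% for Nfkbia, the 3 most abundant per kilobase. It was 41.8% for Nfkbid, 49.7% for Nfkb1 and 52.8% for Relb, and reached 59.1% for Tnfaip3, 62.5% for Nfkbie, 68.0% for Rel and 78.8% for Nfkb2. The median of the 10 was 51.3%, above the 36.2% of the 7138 genes that were at least as abundant in CPM as the lowest of them (Rel) and below the 60.9% of all genes tested. The lowest count of any of the 10 genes in any library was 158 reads (Nfkb2). The libraries carry no molecular identifiers, so reads are not counts of separate mRNAs.

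Other genes of the pathway were grouped into 5 lists with 65 genes in all, of which 54 were tested. None of them was called by edgeR, which called 0 of all 12312 genes, so this says nothing of the lists in particular. DESeq2 calls are not given for these lists. Of the 54, 9 (16.7%) had an unadjusted p under 0.05 in edgeR. Libraries did not overlap for 10 (18.5%). These shares are to be read against the 5.45% and 13.9% of all genes. In the list of the IKK complex and its activators, 13 of 18 tested genes had a fitted fold change above 0, as had 49.0% of all genes. The median was 0.25. An unadjusted p under 0.05 was found for 3 of them (16.7%, against 5.45% of all genes), all with higher levels in SKG. Libraries did not overlap for 3 genes of this list (16.7%, against 13.9% of all genes). Rnf31, encoding the catalytic subunit of the linear ubiquitin ligase, was at 13.1, 48.2 and 37.1 CPM in BALB/c and 92.9, 72.7 and 128 CPM in SKG (log2 fold change 1.58 ± 0.52 SE, edgeR adjusted p = 0.833). Prkcq, encoding PKC-theta, was at 220, 286 and 315 CPM in BALB/c and 370, 414 and 447 CPM in SKG (log2 fold change 0.58 ± 0.18 SE, edgeR adjusted p = 0.830). Neither gene overlapped between the genotypes, whereas Ikbkb, encoding the IKK-beta kinase, overlapped between the genotypes at 183, 180 and 207 CPM in BALB/c and 202, 390 and 337 CPM in SKG. Traf2, an adaptor of TNF receptors, did not overlap either, with means of 85.8 ± 11.4 CPM in BALB/c and 115 ± 13.8 CPM in SKG (SD, n = 3 each; unadjusted p = 0.0840 from edgeR). Rbck1, a further subunit of the linear ubiquitin ligase, had the most reads of the list and lay between 415 and 568 CPM in the 6 libraries.

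Of 13 tested genes for A20 partners, deubiquitinases and other ubiquitin regulators, 9 had a fitted fold change above 0, as had 49.0% of all genes. The median was 0.16, and 0.45 without BALB/c replicate 2. An unadjusted p under 0.05 was found for 2 (15.4%, against 5.45% of all genes), again with SKG higher. Cyld, a deubiquitinase that restrains NF-kB, was at 56.2, 89.5 and 130 CPM in BALB/c and 186, 221 and 199 CPM in SKG (log2 fold change 1.14 ± 0.31 SE, edgeR adjusted p = 0.730). Rnf11, a partner of A20, was at 23.3, 31.6 and 42.9 CPM in BALB/c and 79.3, 51.5 and 146 CPM in SKG (log2 fold change 1.5 ± 0.46 SE, edgeR adjusted p = 0.830). For both, each SKG library was above each BALB/c library. Libraries did not overlap for 15.4% of this list, against 13.9% of all genes. Tax1bp1, with the most reads of this list, had means of 278 ± 21.6 and 311 ± 82.3 CPM (SD, n = 3 each). The 7 genes listed for IkB degradation cover the ligase that leads IkB proteins to the proteasome and factors that act with it. They were split, 3 above 0 and 4 below (median -0.02, and -0.14 without SKG replicate 3), and none had an unadjusted p under 0.05 in edgeR. The ubiquitin-conjugating enzyme gene Ube2d3, with the most reads of this list, was between 788 and 1010 CPM in all libraries. Of the 2 further IkB genes, Bcl3 was not tested because of low counts, and Nfkbiz, encoding the nuclear IkB-zeta, was at 37.2, 74.1 and 83.9 CPM in BALB/c and 27.7, 43.1 and 0.277 CPM in SKG, the last from 10 reads.

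In the list of genes known as NF-kB targets in lymphocytes, most fitted fold changes were on the other side of 0. Of 28 listed genes, 19 were tested, and the rest did not pass the filter on low counts. Of the 19 tested, 14 had a fitted fold change below 0 (73.7%, against 51.0% of all genes). The list was drawn up with earlier results of these data known, so this share describes the list and is no test. The median was -0.31, or -0.78 without SKG replicate 2. At an unadjusted p under 0.05 there were 4 (21.1%, against 5.45% of all genes), all lower in SKG. For 5 (26.3%, against 13.9% of all genes) the genotypes did not overlap, also all lower in SKG. Tnfrsf9, encoding the costimulatory receptor 4-1BB, was at 208, 161 and 143 CPM in BALB/c and 58.7, 64.1 and 72.2 CPM in SKG (log2 fold change -1.39 ± 0.22 SE, edgeR adjusted p = 0.617). The immediate early gene Ier2 was at 1070, 799 and 668 CPM in BALB/c and 318, 297 and 266 CPM in SKG (log2 fold change -1.53 ± 0.20 SE, edgeR adjusted p = 0.380). Both were thus lower in 3 of 3 SKG libraries. The other 2 were Myc and Cd69, the activation marker used for sorting. Myc was at 426, 381 and 374 CPM in BALB/c and 143, 173 and 121 CPM in SKG (log2 fold change -1.43 ± 0.18 SE, edgeR adjusted p = 0.328). The paper, which used DESeq2, names Myc among its differentially expressed genes. Cd69 was at 312, 391 and 354 CPM in BALB/c and 152, 179 and 250 CPM in SKG (log2 fold change -0.87 ± 0.22 SE, edgeR adjusted p = 0.686). These 4 genes are also induced by TCR signals along routes other than NF-kB. Traf1, a TNF receptor adaptor and classical NF-kB target, was counted with 637 to 1843 reads in the BALB/c libraries but with 0, 370 and 53 in those of SKG, without overlap (unadjusted p = 0.172 from edgeR). Fitted log2 fold changes were above 0 for 5 targets, and the genotypes overlapped for each of them. These were Il2ra (1.87 ± 2.33 SE), Ltb (1.47 ± 2.05 SE), Bcl2l1 (1.31 ± 0.76 SE), Icam1 (0.91 ± 0.72 SE) and Ccnd2 (0.08 ± 0.23 SE). Ccnd2, with the most reads of the list, had means of 754 ± 186 and 799 ± 127 CPM (SD, n = 3 each). The genotypes also overlapped for the remaining targets with a fitted fold change below 0. These were Nfkbiz (-1.46 ± 1.31 SE), Birc3 (-1.25 ± 0.89 SE) and Gadd45b (-0.85 ± 2.34 SE). Smaller values were fitted for Sod2 (-0.42 ± 0.39 SE), Cflar (-0.31 ± 0.78 SE) and Junb (-0.28 ± 0.30 SE). The smallest were Zc3h12a (-0.25 ± 1.10 SE), Irf1 (-0.18 ± 0.23 SE) and Tnip1 (-0.11 ± 0.35 SE).

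**Figure D5:**
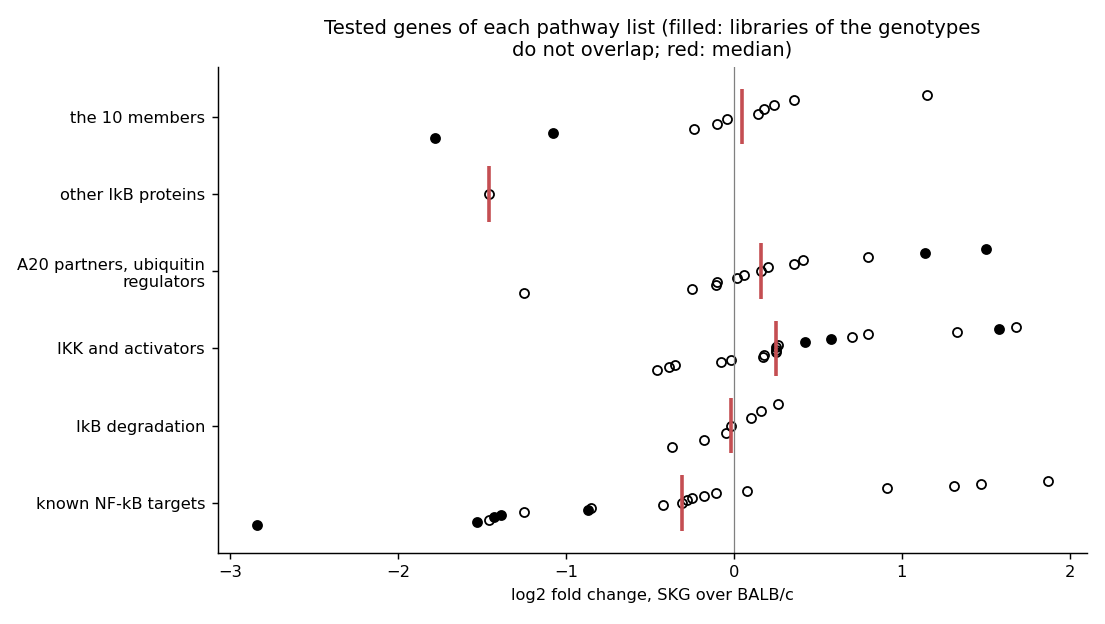
Fitted log2 fold changes of SKG over BALB/c for each tested gene of the 10 members and of 5 pathway lists, with a red line at the median of the list and filled points where the libraries of the genotypes do not overlap. The filled points of the IKK list and of the A20 partners lie above 0, and those of the members and of the known targets below 0, and some genes belong to more than 1 list.

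For Nfkbia and Rel, the tested genes with the most similar pattern over the 6 libraries were listed by Pearson's r of log2 CPM. For Nfkbia these were Suco (r = 0.979), Ifrd1 (0.978) and Mbd1 (0.969), and for Rel they were Cep83 (0.988), Trps1 (0.985) and Ppfia1 (0.984). Among the other 9 members the closest was Nfkbib for Nfkbia (r = 0.662) and Rela for Rel (r = 0.616). These are the highest of 12312 genes over only 6 libraries, and 42 genes had an r above 0.95 with Rel and 7 with Nfkbia. The values are given as a description, with no test, and the genes share the 6 libraries and their depth.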

How the data were processed

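RNA-Seq was performed on 6 libraries of sorted stage 0 iNKT cells (50-nt single-end reads). The paper's methods and the sample labels name different amplification kits, and which was used is not settled here. The authors aligned reads with HISAT2 2.1.0 to GRCm38 without regard to strand and enumerated those overlapping exons with featureCounts (Subread 1.4.4) at a mapping quality of 10 or more. The table deposited by the authors holds raw counts per gene, unfiltered and not normalized. A second table holds their DESeq2 comparison and was not used.

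Groups followed the genotype label. In R 4.3.3, counts were filtered with filterByExpr, normalized with TMM and fitted with edgeR 4.0.16 (quasi-likelihood F test, all 6 libraries, no covariates), with Benjamini-Hochberg adjustment across all 12312 genes. CPM use the TMM totals, except for marker sums, which use plain totals. Standard errors (SE) were taken as the log2 fold change divided by the root of the F statistic, without sign. Exon lengths came from GENCODE M21 by symbol, whereas the authors counted on Ensembl annotation. The likeness of patterns used log2(CPM + 0.05) on plain totals. Alternatives used DESeq2 1.42.0, limma 3.58.1 (voom), other normalization, filters and blocks, and libraries left out. Replicate numbers gave no sign of a pairing of libraries: residuals of same-numbered libraries correlated between -0.145 and 0.00289. With 3 libraries per genotype, these values cannot exclude one.

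The members, gene lists and tests were chosen with earlier results of these data known. Named are all 10 members and, per pathway list, the gene with the most reads, genes at an unadjusted p under 0.05 and up to 2 more with the largest fold changes among those without overlap. For the known targets, the other tested genes are named as well. Replicates are pools of mice, and p-values measure the spread between these pools. PCR copies were not removed.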

Additional observations from a re-analysis of the deposited data

How the results depend on the processing

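The edgeR test called 0 genes (671 of 12312 at an unadjusted p under 0.05), 2 without a filter on low counts, 231 with DESeq2 and shrunken fold changes and 370 with DESeq2 without shrinkage. None of the 10 members was called under any alternative, the replicate block on title numbers (0 called) and on library numbers (0 called) included. Members at an unadjusted p under 0.05 numbered 1, but 2 with limma-voom, 0 with the library-number replicate block and 0 to 2 with 1 library left out. Members without overlap numbered 2, and 2 to 4 with 1 library left out, where 20.7% to 25.8% of all genes did not overlap (13.9% with all 6). After the data were seen, the 2 libraries with most B-cell marker reads were left out together, which gave 6, where 37.7% of all genes did not overlap. In 153 of 170 refits a member kept its direction. Relb, Nfkbie and Tnfaip3 did so in all of theirs. With 1 library left out the log2 fold change ranged from -0.55 to 0.53 for Nfkb1, -0.35 to 0.57 for Nfkb2, -0.07 to 0.78 for Rel, 0.06 to 0.43 for Rela, -0.30 to 0.36 for Nfkbia, -0.24 to 0.12 for Nfkbib and -0.46 to 0.31 for Nfkbid. It was -0.86 for Nfkb1, 0.59 for Rela and 0.28 for Nfkbid without the libraries with B-cell markers, and 1.82 for Nfkb2, -0.06 for Rela, 0.05 for Nfkbia and 0.11 for Nfkbib with the library-number block. The median of the 10 members stayed within the spread of the list between libraries, an SD of 0.31 (-0.19 to 0.15 with 1 library left out). In some refits, medians moved beyond that spread for the A20 partners (0.10 to 0.45 with 1 library left out). They also did for IkB degradation (-0.14 to 0.02, and -0.14 without the B-cell marker libraries). The same held for the targets (-0.78 to -0.23, and -0.71 with the library-number block). The title-number block changed no call. The cause of these shifts was not tested.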
